A study of Mus musculus with 107 samples.

Results

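Livers at the high and low ends of an acute phase score were compared among F2 mice on an atherogenic diet. The mice were selected on a score, the mean of the standardised log ratios of 3 probes, 1 each for Orm1, Orm2 and Lbp. The 26 mice of highest score formed the high set and the 26 of lowest score the low set, which is 52 of 104 mice with values. The other 52 mice are called the middle mice. The sets were made from the data and are not groups of the study, so every test below measures how a gene went with the score.

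All mice were females of an F2 cross between the C57BL/6J and DBA/2J strains, all ate the atherogenic diet, and no age is stated in the sources used here. Total liver RNA of each mouse was compared on a 2-colour array with a common pool holding equal RNA portions of the mice. The labels state 111 mice, 107 arrays were analysed here, and 3 of them (mice 24, 55 and 91) hold no values. No array was repeated, each mouse is a separate animal, and no mouse on another diet or of a parent strain was analysed here.

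The acute phase response is the change in plasma proteins made by hepatocytes after infection or tissue damage. Interleukin 6 and its relatives act through the receptor subunit gp130 and the transcription factor STAT3, while interleukin 1 and tumour necrosis factor act through NF-kB, and C/EBP factors take part in both. Orm1 and Orm2 encode the plasma carrier protein orosomucoid, and Lbp encodes the protein that hands bacterial lipopolysaccharide to CD14 and TLR4. Some plasma proteins, albumin and transthyretin among them, are known to fall in the response.

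Neither log base nor direction of the deposited ratios is stated. Base 10 was assumed, since no value passes -2 or 2 (100-fold at that base), and folds would be smaller under a natural log. All values below are log2 ratios of mouse to pool. That direction is likely from the order of the sample titles but is not settled, since 7 of 5356 pairs of arrays correlated below -0.3. With every sign turned the sets would change places, so a gene that goes with Orm1 would still do so, while levels against the pool would turn.

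Orm1 ran from -1.94 through a median of -1.04 to -0.37 in the low set and from -0.34 through 0.20 to 2.60 in the high set. Orm2 ran from -3.07 through -1.86 to -1.07 in the low set and from -1.0 through 0.46 to 3.64 in the high set. Lbp ran from -1.84 through -0.58 to -0.17 in the low set and from -0.43 through 0.19 to 0.79 in the high set. The sets did not overlap for Orm1 or Orm2, and 22 of 26 high mice lay above every low mouse for Lbp. These values chose the mice, so they are a description with no test: the mean differences were 1.46 for Orm1 (2.74-fold), 2.41 for Orm2 (5.31-fold) and 0.78 for Lbp (1.72-fold). Orm3, a near relative whose probe may share signal with the other orosomucoid genes, differed by 0.56 (1.47-fold) and was likewise left untested.

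The score was not carried by 1 gene. Over the 104 mice Orm1 and Orm2 correlated at r = 0.80, Orm1 and Lbp at 0.59, and Orm2 and Lbp at 0.47, in values that share each mouse's array. Without the 3 mice of most extreme score the values were 0.74, 0.48 and 0.35. Sets drawn from Orm1 alone shared 21 high and 20 low mice with the score's sets, Orm2 alone shared 18 and 20, and Lbp alone shared 18 and 19. No mouse changed from one end to the other. Each gene is 1 of the 3 parts of the score, so such sharing was partly fixed in advance. The last mouse inside the low set scored -0.686 and the next outside it -0.682, and the last inside the high set scored 0.570 and the next outside it 0.556. The ends therefore run into the middle mice with no gap.

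**Figure D1:**
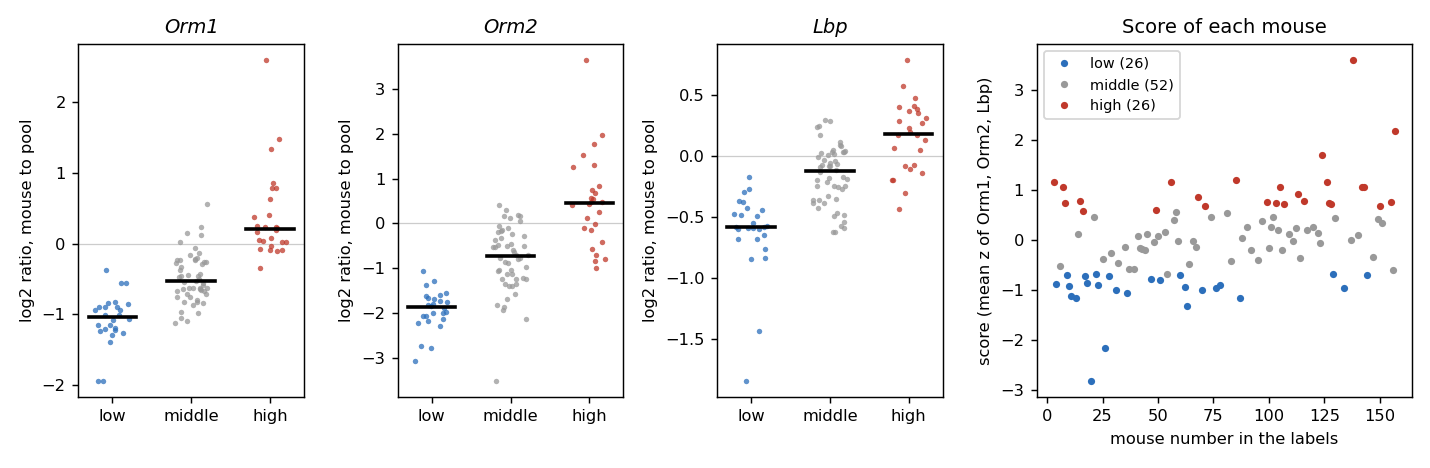
Log2 ratio of Orm1, Orm2 and Lbp in each low, middle and high mouse, with black lines at the medians, and the score of each mouse against its number in the labels. The sets separate without overlap for Orm1 and Orm2, mouse 20 has the lowest score at -2.81 and mouse 138 the highest at 3.59, and 20 of 26 low mice carry numbers below the median of 70.5.

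Promoters are shown here for 1 score gene and for 4 responding genes with different roles. Orm2 stands for the score itself, since no promoter of Orm1 or Lbp was matched. Steap4 (an iron and copper reductase), Apcs (serum amyloid P) and Socs3 (the feedback inhibitor of STAT3 signalling) hold a STAT motif, and Cxcl1 (a neutrophil chemokine) holds an NF-kB motif. Each sequence is the 300 bases from 250 before to 50 after the annotated gene start, from RefSeq on GRCm38.p6, read 5′ to 3′ on the gene's strand. Capitals mark the TATA box (TATAAA) in Orm2, the STAT motif (TTCNNNGAA) in Steap4, Socs3 and Apcs, and the NF-kB motif (GGANNTTCC) in Cxcl1.
Orm2 chr4:63362199-63362498, plus strand: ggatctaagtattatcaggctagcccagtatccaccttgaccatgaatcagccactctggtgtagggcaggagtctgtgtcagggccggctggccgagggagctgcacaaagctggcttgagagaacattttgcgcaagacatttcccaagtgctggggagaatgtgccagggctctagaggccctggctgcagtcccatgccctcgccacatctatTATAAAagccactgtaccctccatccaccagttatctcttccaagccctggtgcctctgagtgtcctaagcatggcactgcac
Steap4 chr5:7960222-7960521, plus strand: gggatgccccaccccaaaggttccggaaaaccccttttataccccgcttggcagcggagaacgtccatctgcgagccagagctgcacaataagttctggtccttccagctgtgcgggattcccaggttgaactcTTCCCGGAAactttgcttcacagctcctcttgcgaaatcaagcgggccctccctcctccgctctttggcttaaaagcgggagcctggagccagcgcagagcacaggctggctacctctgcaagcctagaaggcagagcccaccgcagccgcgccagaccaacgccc
Socs3 chr11:117969317-117969616, minus strand: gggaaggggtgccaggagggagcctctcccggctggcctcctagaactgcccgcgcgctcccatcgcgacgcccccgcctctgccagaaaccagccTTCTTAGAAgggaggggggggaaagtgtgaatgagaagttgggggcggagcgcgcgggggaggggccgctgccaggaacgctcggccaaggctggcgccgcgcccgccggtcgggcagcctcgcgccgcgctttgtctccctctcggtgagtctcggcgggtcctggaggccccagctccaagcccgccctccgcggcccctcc
Apcs chr1:172895005-172895304, minus strand: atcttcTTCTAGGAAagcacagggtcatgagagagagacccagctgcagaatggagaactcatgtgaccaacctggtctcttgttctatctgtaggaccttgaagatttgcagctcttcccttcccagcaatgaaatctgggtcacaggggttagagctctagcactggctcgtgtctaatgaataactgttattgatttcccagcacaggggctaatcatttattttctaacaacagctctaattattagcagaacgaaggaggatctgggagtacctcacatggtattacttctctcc
Cxcl1 chr5:90890995-90891294, plus strand: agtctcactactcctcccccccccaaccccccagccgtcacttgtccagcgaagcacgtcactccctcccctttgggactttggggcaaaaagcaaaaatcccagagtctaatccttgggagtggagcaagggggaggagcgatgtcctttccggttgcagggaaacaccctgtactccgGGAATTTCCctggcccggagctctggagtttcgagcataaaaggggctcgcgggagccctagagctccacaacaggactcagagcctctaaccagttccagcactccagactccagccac
The first base of the match lies 33 bases before the start in Orm2, 116 in Steap4, 154 in Socs3, 244 in Apcs and 70 in Cxcl1.

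The motifs were searched on both strands in the same window of every promoter. Of 32851 promoters, 8.3% held the STAT motif, 4.26% the NF-kB motif, 13.6% the TATA box and 2.08% a C/EBP motif (TTGCNNCAA). Among the 9740 tested genes with a promoter the shares were 8.76%, 5.27%, 11.9% and 1.99% in that order. Of the 33 genes of the acute phase, cytokine, transcription and chemokine lists that were higher in the high set, 27 had a promoter in the table. STAT was found in 8 of them, NF-kB in 6, the TATA box in 7 and C/EBP in 2. A match describes letters in this window and is no evidence of a bound site.

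The mouse numbers in the labels went with the score. Mice of the low set carried a median number of 33.5, the middle mice 82 and the high set 106, and 1617 of 12311 genes (13.1%) went with mouse number over the 104 mice. The labels do not say what the numbers stand for. Arrays with over 700 values at the limits of -2 and 2 made up 5 of 26 low, 9 of 52 middle and 4 of 26 high mice. Mice 20 and 26, with the lowest scores of -2.81 and -2.15, stood apart from the other 24 low mice. General hepatocyte markers averaged -1.51 and -1.76 in them against -0.59 to 0.31 in the other 24, and T and NK cell markers averaged 1.08 and 2.10 against -0.88 to 0.13. Results that change with this pair are therefore given with and without it.

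In the 26 against 26 comparison, 1208 of 12311 genes were higher in the high set (9.81%) and 689 were lower (5.6%), by limma with Benjamini-Hochberg adjusted p under 0.05. Differences over 2-fold were found for 223 of the higher genes and 15 of the lower ones. The median difference of all genes was -0.04. Leaving out mice 20 and 26 gave 1722 higher (14%) and 1692 lower (13.7%), of which 1194 and 678 had been called with all 52 mice. The excess of higher over lower genes was thus small in that fit, where the lower count moved by over 1.5 times. Other fits that hold neither mouse kept an excess. Mice numbered above the median alone gave 79 higher and 10 lower genes, and leaving out the arrays of widest spread gave 1513 and 1239. The counts also moved with scaling: dividing each array by its SD gave 1420 higher and 1164 lower genes, and array quality weights gave 2101 and 2718.

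With mouse number as a term, 1043 genes were higher (8.47%) and 555 lower (4.51%), and 978 and 410 of them had been called without it. Without the arrays rich in values at the limits, 792 were higher (6.43%) and 218 lower (1.77%), and 775 and 200 had been called with them. Of the 1897 genes called, 1780 (93.8%) had the same sign of slope on the score among the 52 middle mice, whose arrays did not enter the comparison. There, 338 genes rose with the score (2.75%) and 193 fell (1.57%). The calls in both numbered 294, all of the same sign, which is 15.5% of the first list and 55.4% of the second. The share of same signs over all genes is not given here, so these figures do not show how far the called genes stand out. In the middle mice the score also went with mouse number (r = 0.25) and with the leading axis of variation described below (r = 0.42). With mouse number as a term in the middle mice, 12 genes rose (0.0975%) and 2 fell (0.0162%), so most of the middle calls did not pass beside that number.

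The first principal component, the leading axis of variation over genes with values in all mice and without the score genes (27.9% of variance), also went with the score: its median was -1.10 in the low set and 0.38 in the high set, in units of its SD, with mice 20 and 26 at 2.45 and 3.08. With that component as a term, 1145 genes were higher (9.3%) and 806 lower (6.55%), of which 527 and 144 had been called without it. Leaving out mice 20 and 26 as well, a choice made after seeing the data, gave 511 higher (4.15%) and 297 lower (2.41%).

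**Figure D2:**
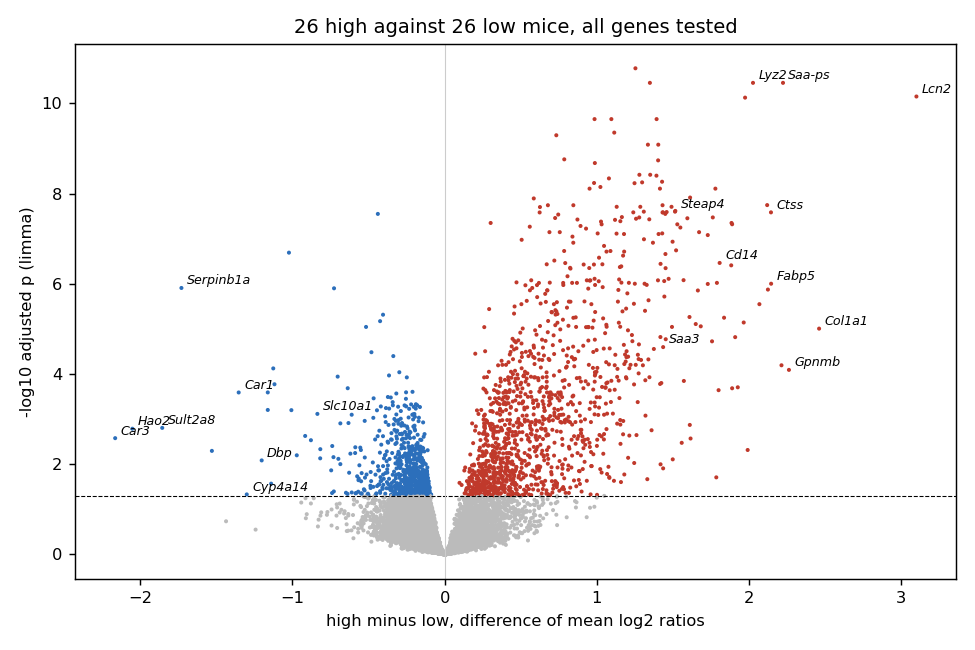
Each point is a gene: the x axis is the difference of mean log2 ratios, high minus low, and the y axis is -log10 of the limma adjusted p, with a dashed line at 0.05. Red points are the 1208 higher and blue points the 689 lower genes of the 26 against 26 comparison, and Lcn2 lies farthest to the right at 3.10.

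Acute phase proteins other than the score genes were higher for part of the list only. Of 20 measured, 8 were higher and 0 lower, with a median difference of 0.32; at an unadjusted p under 0.05, limma counted 10 and 1. The counts were 8 and 1 without mice 20 and 26. The higher ones were Lcn2, Steap4, Saa3, Il1rn, Apcs, Itih3, Cp and Serpina3n, while the haptoglobin and fibrinogen genes did not pass.

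Lcn2 encodes lipocalin 2, which binds bacterial iron carriers and is made by hepatocytes and by neutrophils. It ran from -3.53 through -2.89 to 1.17 in the low set and from -1.87 through 0.53 to 2.73 in the high set. All 26 high mice lay above the low median, but only 5 lay above the highest low mouse, so the ends of the sets overlapped. The difference was 3.10 ± 0.30 (SE, 8.56-fold, adjusted p = 7.02e-11), the largest of the genes tested in this comparison. It was 3.30 without mice 20 and 26. In the middle mice Lcn2 rose by 2.06 ± 0.27 for each SD of the score (adjusted p = 6.68e-06), and by 1.99 with mouse number as a term (4.41e-05).

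Steap4, induced by inflammatory cytokines, ran from -2.76 through -1.36 to -0.52 in the low set and from -1.07 through -0.09 to 2.88 in the high set. Of the high mice, 22 lay above every low mouse. The difference was 1.51 ± 0.19 (2.85-fold, adjusted p = 2.51e-08), with 1.42 without mice 20 and 26. The interleukin 1 receptor antagonist Il1rn, which blocks interleukin 1 at its receptor, ran from -1.58 through -0.89 to 0.52 against -0.60 through 0.51 to 1.77. Its difference was 1.30 ± 0.15 (2.46-fold, adjusted p = 5.63e-09), and 13 high mice exceeded every low mouse. Both genes also rose in the middle mice, by 0.75 for Steap4 (adjusted p = 0.0357) and 0.71 for Il1rn (0.0247).

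The serum amyloid genes are major acute phase genes of the mouse, and their near-identical copies can share probe signal. Saa3, the form made outside hepatocytes as well, ran from -4.35 through -1.36 to 0.39 in the low set and from -1.86 through 0.07 to 2.00 in the high set. It differed by 1.44 ± 0.25 (2.7-fold, adjusted p = 2.53e-05). The probe annotated to the pseudogene Saa-ps ran from -4.50 through -2.33 to -0.74 against -1.74 through -0.31 to 2.13 and differed by 2.22 ± 0.21 (4.67-fold, adjusted p = 3.5e-11). Of the high mice, 21 lay above every low mouse for Saa-ps and 9 for Saa3. Which copy of the family the Saa-ps probe read is uncertain. Saa4, which is made constitutively, differed by 0.10 and did not pass.

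Apcs ran from -2.04 through -0.84 to 0.33 in the low set and from -1.90 through 0.04 to 1.28 in the high set, a difference of 1.0 ± 0.18 (2-fold, adjusted p = 2.94e-05). All but 1 of the high mice lay above the low median. Smaller differences were found for Itih3, which stabilises hyaluronan (0.69 ± 0.14, adjusted p = 0.000261), and for Cp, the copper oxidase ceruloplasmin (0.61 ± 0.13, adjusted p = 0.000521). The protease inhibitor Serpina3n differed by 0.43 ± 0.15 (adjusted p = 0.0484), and by 0.37 without mice 20 and 26, where it no longer passed (0.0654). Metallothionein Mt2 passed only without that pair, at 0.89 (adjusted p = 0.0116), and the pantetheinase Vnn1 was then lower, by -0.95 (0.00122).

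Haptoglobin (Hp), which captures free haemoglobin, ran from -1.97 through -0.51 to 1.06 in the low set and from -1.07 through -0.62 to 0.46 in the high set. The difference was 0.03 ± 0.13 (adjusted p = 0.91). Orm1 and Orm2 chose the sets and had to differ between them, so their differences cannot be set against that of Hp. The fibrinogen chains differed by 0.24 for Fga, -0.03 for Fgb and 0.08 for Fgg, and none passed. In the middle mice Fgg fell with the score by 0.36 per SD (adjusted p = 0.0482). Hamp, the iron hormone hepcidin, differed by 0.0036, Crp by 0.25, Cfb by -0.07, Lrg1 by 0.14 and Itih4 by 0.39, with no call among them.

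**Figure D3:**
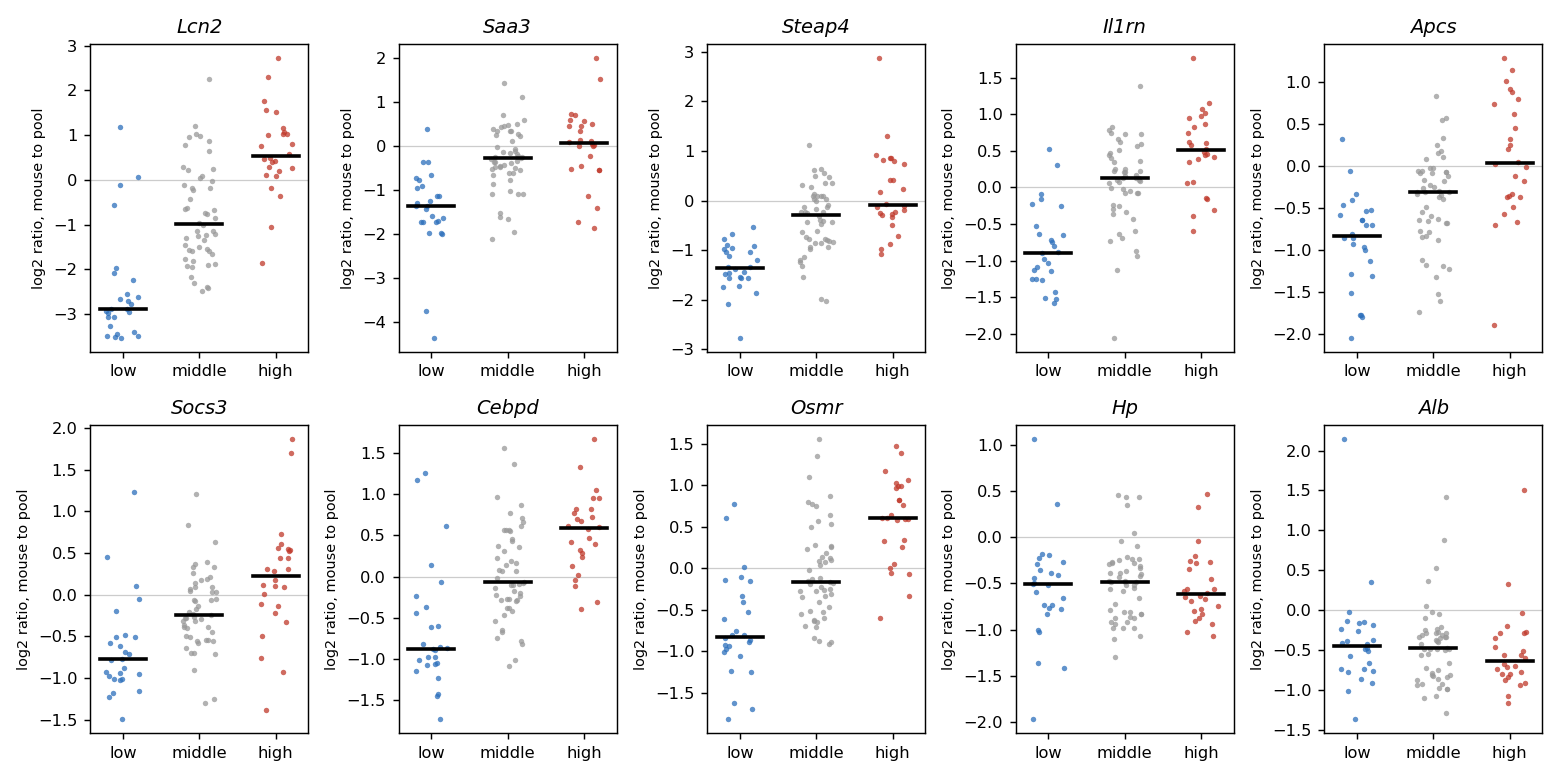
Log2 ratio, mouse to pool, of 10 genes in each low, middle and high mouse, with black lines at the medians. Lcn2, Saa3, Steap4, Il1rn, Apcs, Socs3, Cebpd and Osmr were higher in the high set, whereas Hp and Alb have medians of -0.51 and -0.45 in the low set and -0.62 and -0.64 in the high set.

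Proteins known to fall in the response did not pass with all 52 mice. Of 13 measured, limma called 0 in either direction, with 0 higher and 2 lower at an unadjusted p under 0.05 and a median of -0.04. Albumin (Alb) ran from -1.36 through -0.45 to 2.14 in the low set and from -1.16 through -0.64 to 1.51 in the high set, a difference of -0.12 ± 0.16. Transthyretin (Ttr) ran from -2.98 through 0.32 to 1.16 against -1.66 through -0.28 to 0.43, and 25 of 26 high mice lay below the low median. Without mice 20 and 26, which averaged -1.77 and -1.93 over this list, 4 genes were lower. They were the glucocorticoid carrier Serpina6 (-1.18, adjusted p = 0.000167), Pon1 (-0.75), Ttr (-0.68) and Igfals (-0.62). Apoa2 (-0.68) and Rbp4 (-0.40) fell with the score in the middle mice.

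Cytokines and receptors that start the response were higher for 8 of 17 measured and lower for 0 (9 and 0 without mice 20 and 26), with a median of 0.25. The oncostatin M receptor Osmr, which pairs with gp130, ran from -1.81 through -0.82 to 0.77 in the low set and from -0.60 through 0.61 to 1.47 in the high set. It differed by 1.28 ± 0.16 (2.44-fold, adjusted p = 1.96e-08). Il6 ran from -1.73 through -0.49 to 0.12 against -0.38 through 0.43 to 1.63 and differed by 0.99 ± 0.11 (1.98-fold, adjusted p = 2.1e-09). Il1a differed by 0.79 ± 0.09 (adjusted p = 1.74e-09), and for each of Il6 and Il1a 22 high mice exceeded every low mouse.

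Receptors followed with smaller differences. The interleukin 1 receptor Il1r1 differed by 0.70, the tumour necrosis factor receptors Tnfrsf1b by 0.54 and Tnfrsf1a by 0.30, gp130 (Il6st) by 0.36 and the adaptor Myd88 by 0.26. The cytokines Il1b, at -0.24 (adjusted p = 0.354), and Tnf, at 0.19 (0.722), did not pass. Osmr rose by 0.66 and Il6 by 0.27 per SD of the score in the middle mice.

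Transcription factors and feedback inhibitors were higher for 8 of 20 and lower for 0, with a median of 0.28. Leaving out mice 20 and 26 gave 10 higher and 1 lower, and leaving out the arrays rich in limit values gave 5 and 0. Atf3, a stress-induced factor, differed by 1.31 ± 0.19 (adjusted p = 9.94e-07). Cebpd, the C/EBP factor known to rise in the acute phase, ran from -1.73 through -0.87 to 1.26 in the low set and from -0.39 through 0.59 to 1.67 in the high set. It differed by 1.16 ± 0.17 (2.24-fold, adjusted p = 9.4e-07), and all 26 high mice lay above the low median.

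Socs3 ran from -1.49 through -0.78 to 1.23 in the low set and from -1.38 through 0.23 to 1.86 in the high set. It differed by 0.84 ± 0.17 (1.79-fold, adjusted p = 0.000315) and rose by 0.53 per SD of the score in the middle mice. The nuclear NF-kB cofactor Nfkbiz differed by 0.95, Nfkb2 by 0.58, Klf6 by 0.55, the NF-kB cofactor Bcl3 by 0.46 and Stat3 by 0.34. Cebpb, often named beside Cebpd, differed by -0.10 ± 0.11 and did not pass (adjusted p = 0.609).

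Genes that sense bacterial products were higher for 5 of 6 and lower for 0, with a median of 0.63. Cd14, the co-receptor to which the Lbp protein delivers lipopolysaccharide, ran from -2.02 through -1.59 to 1.77 in the low set and from -0.80 through 0.32 to 3.59 in the high set. It differed by 1.81 ± 0.25 (3.5-fold, adjusted p = 3.44e-07), and 1 high mouse lay above the highest low mouse. Tlr2 ran from -1.60 through -0.89 to 0.09 against -0.37 through 0.57 to 1.60 and differed by 1.35 ± 0.13 (2.54-fold, adjusted p = 3.5e-11), with 20 high mice above every low mouse. Tlr4 (0.89), its partner Ly96 (0.32) and the peptidoglycan amidase Pglyrp2 (0.37) also passed, and the count was 5 without mice 20 and 26. The probes of Tlr4 disagreed, at 0.30 (adjusted p = 0.439) and 1.40 (5.64e-08).

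Chemokines were higher for 9 of 15 and lower for 0, with a median of 0.53 (10 and 1 without mice 20 and 26). Ccl3, a monocyte attractant, ran from -2.55 through -1.42 to 0.07 in the low set and from -0.73 through 0.76 to 1.74 in the high set. It differed by 1.97 ± 0.19 (3.93-fold, adjusted p = 7.44e-11), and 21 high mice exceeded every low mouse. The neutrophil attractants Cxcl1 (1.50) and Cxcl2 (1.43), the monocyte attractants Ccl2 (1.42) and Ccl7 (1.19), and Cxcl16 (1.13) followed. Cxcl14 passed at 0.53, but its probes disagreed, at -0.05 and 1.11.

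Complement genes were higher for 7 of 18 and lower for 0, with a median of 0.20. They were properdin Cfp (0.91), C8b (0.63), C9 (0.62), clusterin Clu (0.54), C2 (0.51), C4bp (0.49) and C4b (0.40). C2, an activating component, ran from -2.13 through -0.29 to 0.11 in the low set and from -0.22 through 0.11 to 0.60 in the high set, so all 26 high mice lay above the low median. Without mice 20 and 26, which averaged -1.81 and -1.93 over the list, 7 were higher and Masp2 (-0.30) and Mbl2 (-0.38) of the lectin pathway were lower. Over all genes 13.7% were lower without that pair, so the lower count is no result about this list.

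Clotting genes were higher for 4 of 21 and lower for 0, with a median of 0.06: Tfpi (0.53), Pros1 (0.48), Kng1 (0.41) and F11 (0.35). Tfpi and Pros1 encode natural anticoagulants. The counts without mice 20 and 26 were 4 and 2, the lower ones being Klkb1 (-0.44) and Proc (-0.33). Over all genes 14% were higher and 13.7% lower without that pair, so the lower count is no result about clotting genes. Among the middle mice 4 clotting genes fell and 0 rose: Serpinc1, Plg, Serpind1 and Fgg. Iron handling genes were higher for 6 of 15 and lower for 0 (6 and 1 without mice 20 and 26), among them the haem-degrading enzyme Hmox1 (1.04 ± 0.17, adjusted p = 5.84e-06), which does not share a list with the acute phase proteins.

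Markers of immune and stromal cells were among the largest differences. In whole liver RNA, more cells of a type and more RNA per cell cannot be told apart. Of 15 macrophage markers, 12 were higher and 0 lower, with a median of 1.27, and 13 and 0 without mice 20 and 26. In the middle mice only 1 of the 15 rose with the score and 0 fell, against 2.75% and 1.57% of all genes. Lyz2 (lysozyme) ran from -2.17 through -1.40 to 0.13 in the low set and from -1.05 through 0.64 to 2.41 in the high set, a difference of 2.02 ± 0.19 (4.07-fold, adjusted p = 3.5e-11). Ctss (a lysosomal protease) differed by 2.14, Fcer1g by 1.89, Cd68 by 1.43 and the surface receptor Adgre1 by 1.27. The Kupffer cell marker Clec4f (0.29) and the scavenger receptor Marco (0.98) did not pass with all 52 mice. The haemoglobin receptor Cd163, another macrophage gene, was lower, by -1.14 ± 0.37 (adjusted p = 0.0269). That call ended without the arrays rich in limit values (-0.72, adjusted p = 0.293) and without the widest arrays (-0.66, 0.204).

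Averaged over the macrophage list, each low mouse lay between -1.69 and 0.14 with a median of -0.99, and each high mouse between -0.72 and 1.08 with a median of 0.45. The middle mice lay between -0.98 and 1.28 with a median of -0.14. Mice 20 and 26 averaged 0.09 and -0.10, near the top of the low set. Other genes known from lipid-laden or scavenging macrophages were Gpnmb (2.26 ± 0.42, 4.79-fold), Fabp5 (2.14 ± 0.31), Lgals3 (2.12 ± 0.32), the fungal sensor Clec7a (2.12 ± 0.26) and the oxidised LDL receptor Olr1 (1.91 ± 0.32). Class II antigen presentation genes were higher for 4 of 6 and lower for 0, with and without mice 20 and 26, with H2-Aa at 1.04 and Cd74 at 0.94.

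Neutrophil markers were higher for 6 of 11 and lower for 0 (7 and 0 without mice 20 and 26), with a median of 0.86. S100a8, a calcium-binding protein of neutrophils, ran from -4.78 through -2.16 to 2.83 in the low set and from -1.54 through 0.09 to 3.04 in the high set. It differed by 2.21 ± 0.41 (4.63-fold, adjusted p = 6.39e-05). S100a9 (1.93), Ngp (1.99), Mmp8 (1.09), Mmp9 (0.82) and Lcn2 also passed. The list averaged -2.51 to 1.63 over the low mice, median -1.19, and -0.90 to 2.43 over the high mice, median -0.01. The slopes of S100a8 (-0.12) and S100a9 (-0.11) in the middle mice did not pass.

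Stellate cell and fibroblast markers were higher for 12 of 15 and lower for 0 with and without mice 20 and 26, with a median of 0.87. Col1a1, a chain of fibrillar collagen I, ran from -4.35 through -2.63 to 2.18 in the low set and from -2.57 through 0.52 to 2.65 in the high set. All 26 high mice lay above the low median and 1 above the highest low mouse. The difference was 2.46 ± 0.41 (5.5-fold, adjusted p = 9.83e-06). Col3a1 differed by 1.96, the metalloproteinase inhibitor Timp1 by 1.44 and the collagen crosslinking enzyme Lox by 1.19. Acta2, the smooth muscle actin of activated stellate cells, differed by 0.39 and did not pass (adjusted p = 0.275).

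In the middle mice 8 of these 15 markers rose and 0 fell, with Col1a1 at 1.77 per SD of the score. Other lists gave fewer calls in those mice. There 3 of 17 cytokine and receptor genes, 2 of 20 transcription genes and 1 of 6 endotoxin sensing genes rose. So did 2 of 15 chemokines and 1 of 11 neutrophil markers, with 0 falling in each list. Averaged over the list, low mice lay between -1.58 and 0.74 with a median of -0.90, and high mice between -0.67 and 1.29 with a median of 0.23. Of the other cell types, B and plasma cell markers were higher for 2 of 8, bile duct markers for 2 of 7 and endothelial markers for 2 of 7, with 0 lower in each (2, 3 and 2 higher without mice 20 and 26). Over all genes 9.81% were higher, and 14% without that pair, so 2 calls in lists this short say little about these cell types. Limma called 0 endothelial markers with mouse number as a term and 0 without the arrays rich in limit values, with 0 and 3 higher and 0 lower at an unadjusted p under 0.05. Of 14 T and NK markers limma called 0 in either direction, with 0 higher and 4 lower at an unadjusted p under 0.05. Without mice 20 and 26, 2 were higher (Cd8a and Ccl5) and 1 lower (Nkg7), against 14% and 13.7% of all genes. Where a list above had some higher and 0 lower calls with all 52 mice, limma also counted 0 lower members at an unadjusted p under 0.05, apart from 1 among the acute phase proteins and 1 among the transcription factors.

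**Figure D4:**
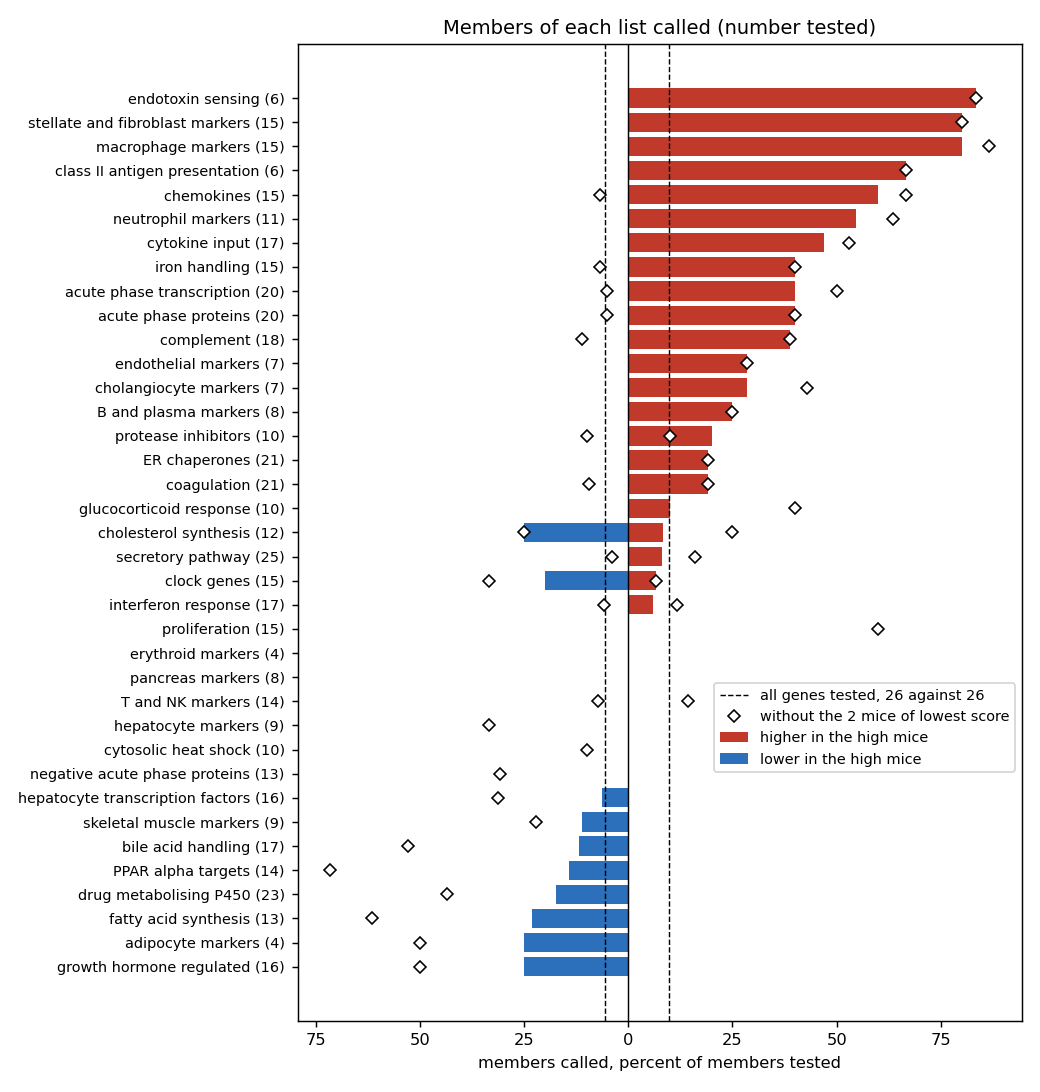
Share of the measured members of each gene list called higher (red, right) or lower (blue, left) in the 26 high against the 26 low mice, with the number of members tested in parentheses. Dashed lines mark the shares over all genes, 9.81% and 5.6%, and white diamonds mark the shares without mice 20 and 26; macrophage and stellate markers reach 12 of 15 higher, while the lower shares of the metabolic lists grow without that pair.

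Since macrophage markers went with the score, the comparison was repeated with their mean as a term, a choice made after seeing the data. With all 52 mice, 284 of 12296 genes were then higher (2.31%) and 206 lower (1.68%). Only 47 and 13 of them had been called without the term. Passing genes included Saa-ps (2.04), Saa3 (1.40), Steap4 (1.27), Apcs (1.17), Il1rn (0.94) and Il6 (0.87), whereas Lcn2 at 1.07 did not (adjusted p = 0.0746).

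Those calls rest on mice 20 and 26, which combine the lowest scores with macrophage means near the top of the low set. Without them limma with the macrophage term called 0 genes higher (0%) and 0 lower (0%), with 421 and 385 at an unadjusted p under 0.05. The differences were then 1.28 for Saa-ps (adjusted p = 0.49), 0.82 for Steap4 (0.652), 0.59 for Il1rn (0.692), 1.41 for Lcn2 (0.618) and 1.13 for Col1a1 (0.824). Outside that pair, no gene passed beside the macrophage mean. The part of macrophage, neutrophil and stellate cell RNA in the differences of other genes was not tested.

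**Figure D5:**
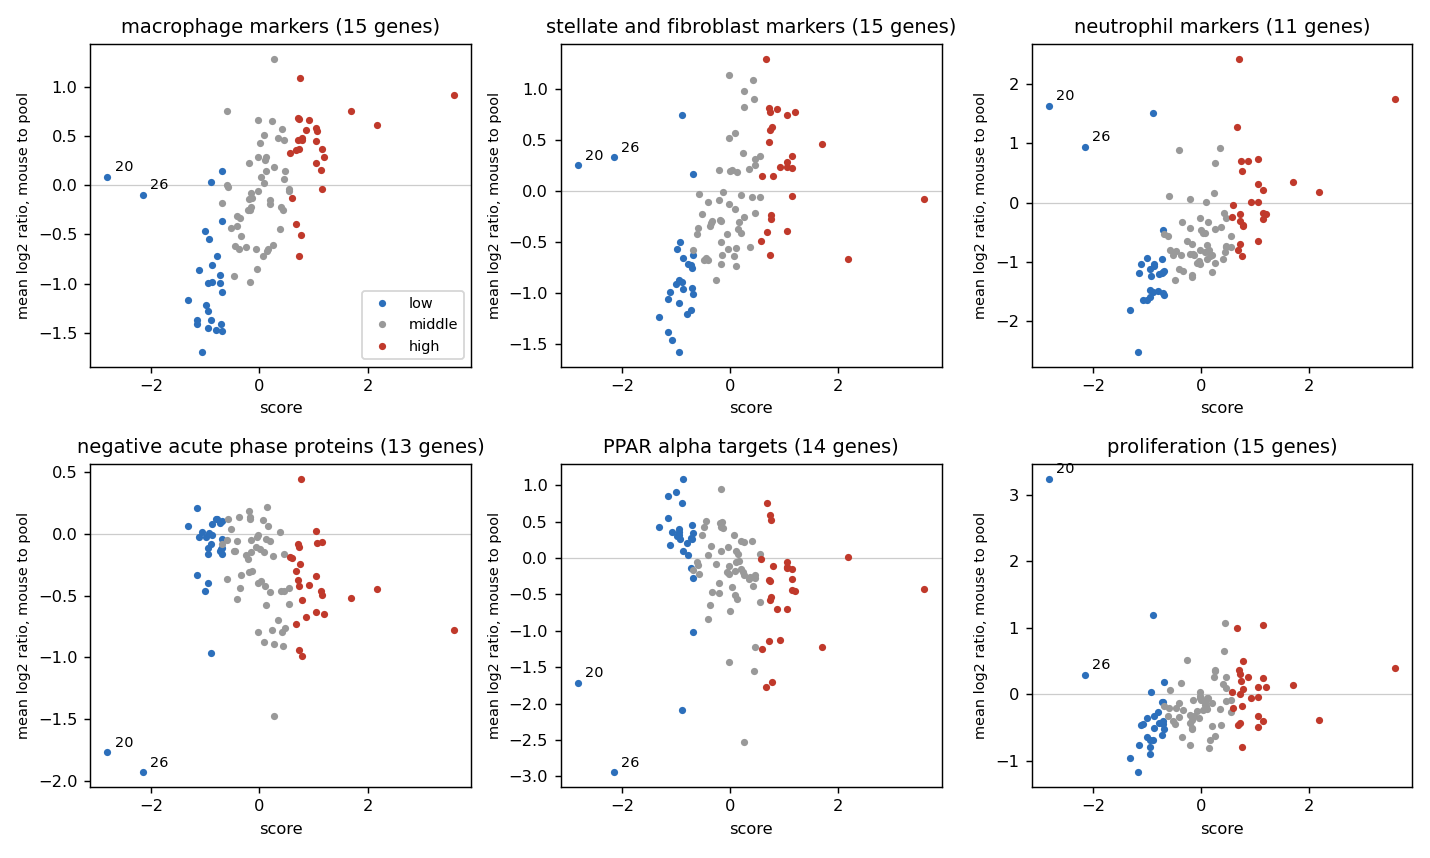
Mean log2 ratio, mouse to pool, over the measured members of 6 gene lists against the acute phase score, 1 point a mouse, coloured by set. Mice 20 and 26 lie near the top of the low set for macrophage and neutrophil markers and low for negative acute phase proteins and PPAR alpha targets, where most of the other 24 low mice lie above them.

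With the first principal component as a term, acute phase proteins were higher for 11 of 20 and, without mice 20 and 26, for 8, and macrophage markers for 13 and 12 of 15. Over all genes 9.3% were higher with that term, and 4.15% without the pair as well. Saa-ps at 2.07, Lcn2 at 1.76, Steap4 at 1.41, Apcs at 1.22 and Il6 at 0.83 passed in the second of these fits. Stellate markers came to 6 of 15 higher and then 0, with 4 at an unadjusted p under 0.05, and neutrophil markers to 2 of 11 in both. Complement genes came to 16 of 18 higher and then 5, and clotting genes to 13 of 21 and then 5. Of the negative acute phase proteins 3 of 13 were higher, not lower, and then 2.

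Among lower genes, Car3, an abundant carbonic anhydrase, ran from -6.58 through 0.64 to 1.59 in the low set and from -6.59 through -2.53 to 0.59 in the high set. All 26 high mice lay below the low median, but the ends of both sets reached equally far down. The difference was -2.16 ± 0.53 (4.48-fold lower, adjusted p = 0.00264), and -2.43 without mice 20 and 26. Hao2, a female-biased peroxisomal oxidase, ran from -5.04 through 0.68 to 1.70 against -5.27 through -1.67 to 1.25. It differed by -2.05 ± 0.48 (4.14-fold lower, adjusted p = 0.00163), and by -2.41 without that pair.

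The sulfotransferase Sult2a8 (-1.85), Car1 (-1.35), the clock output factor Dbp (-1.20) and the lipoprotein receptor Vldlr (-1.01) were also lower. Serpinb1a, a neutrophil protease inhibitor, ran from -1.78 through 0.70 to 1.84 in the low set and from -2.81 through -1.30 to 0.71 in the high set. It differed by -1.73 ± 0.26 (3.31-fold lower, adjusted p = 1.23e-06), with 9 high mice below every low mouse. Cnnm1 differed by only -1.02 ± 0.14 (adjusted p = 2.03e-07), yet 14 high mice lay below every low mouse. Mice 20 and 26 held the lowest value of the low set for 10 of the 15 lower genes of largest difference.

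Drug and steroid metabolising P450 enzymes were lower for 4 of 23 and higher for 0, with a median of -0.22. Without mice 20 and 26, which averaged -1.89 and -2.18 over the list against a median of 0.07 in the other low mice, 10 were lower. Over all genes, for this and the metabolic lists below, 5.6% were lower with all mice and 13.7% without the pair. Cyp2b13 (-1.16 with all mice, -1.37 without the pair), Cyp2c37 (-0.97 and -1.24), Cyp2b9 (-0.82 and -0.98) and Cyp2c40 (-0.74 and -0.95) passed both ways. Cyp2e1, which oxidises ethanol, passed only without the pair, at -0.91 (adjusted p = 0.000178), as did Cyp2f2 at -1.0. Without the arrays rich in values at the limits, 1 of the 23 was lower. With all mice the direction turned with terms. With the first principal component 11 were higher and 0 lower, in a fit that called 9.3% of all genes higher. Without mice 20 and 26 that fit called 1 higher and 0 lower, against 4.15% of all genes higher. That call is no result about this list, where limma counted 8 and 2 at an unadjusted p under 0.05. With the macrophage term and all mice 3 were higher and 0 lower, against 2.31% of all genes higher. Without the pair the macrophage fit called 0 of all genes tested. Of 9 general hepatocyte markers limma called 0 with all mice, with 0 higher and 2 lower at an unadjusted p under 0.05. Their median difference was -0.09. Without mice 20 and 26, 3 of them were lower (Ttr, Hpd and Asgr2) and 0 higher. In the middle mice 2 of them fell and 0 rose, with a median slope of -0.46 against -0.40 for the P450 list. How far the metabolic lists here and below fell with hepatocyte markers was not tested.

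Genes regulated by growth hormone were lower for 4 of 16 and higher for 0 (8 and 0 without mice 20 and 26), with a median of -0.38. With the first principal component 3 were higher and 0 lower. Without the pair that fit called 0 in either direction, with 3 higher and 0 lower at an unadjusted p under 0.05. Besides Hao2, Cyp2b13 and Cyp2b9 the lower genes included the steroid dehydrogenase Hsd3b5 (-0.88). Bile acid genes were lower for 2 of 17 and higher for 0, and lower for 9 without the pair. With the first principal component 9 were higher and 0 lower (6 and 0 without the pair), in fits that called 9.3% and 4.15% of all genes higher. With the macrophage term 3 were higher and 0 lower, and without the pair that fit called 0 of all genes tested. Slc10a1, the basolateral bile acid uptake carrier, ran from -1.75 through 0.52 to 1.01 in the low set and from -2.39 through -0.44 to 0.64 in the high set. It differed by -0.84 ± 0.18 (1.78-fold lower, adjusted p = 0.000764) and fell by 0.87 per SD of the score in the middle mice. Cyp8b1, the sterol hydroxylase that sets cholic acid output, differed by -0.73, while the rate-limiting enzyme Cyp7a1 differed by -0.21 and did not pass.

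PPAR alpha targets, which burn fatty acids, were lower for 2 of 14 and higher for 0, with a median of -0.39, and lower for 10 without mice 20 and 26. With the first principal component 6 were higher and 0 lower (5 and 0 without the pair), and without the arrays rich in limit values limma called 0, with 0 at an unadjusted p under 0.05 too. Cyp4a14 ran from -5.28 through 0.80 to 1.42 in the low set and from -4.98 through -0.83 to 1.14 in the high set and differed by -1.30 ± 0.46 (adjusted p = 0.0466). Without the pair it differed by -1.60, Cyp4a10 by -1.16 and Acot1 by -1.23. Ppara itself passed only without the pair, at -0.73 (adjusted p = 6.52e-07). With mouse number as a term and all 52 mice, neither Cyp4a14 (-1.42, adjusted p = 0.0591) nor the isomerase Eci1 (-0.52, 0.108) passed.

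Fatty acid synthesis genes were lower for 3 of 13 and higher for 0, and lower for 8 without mice 20 and 26. With the first principal component 1 was lower and 1 higher (1 and 0 without the pair). The lipogenic factor Srebf1 ran from -1.01 through 0.24 to 1.40 in the low set and from -1.24 through -0.65 to 0.31 in the high set, a difference of -0.70 ± 0.13 (adjusted p = 0.000114). The elongase Elovl5 differed by -0.74 and the desaturase Fads2 by -0.49. The nuclear receptor Nr1i3, which drives Cyp2b genes, differed by -0.48, and all 26 high mice lay below the low median. Of 15 clock genes, Arntl was higher (0.74) and Dbp, Tef (-0.36) and Cry2 (-0.33) were lower, against 9.81% and 5.6% of all genes. Without mice 20 and 26, 1 was higher and 5 lower; with mouse number as a term 0 were higher (1 at an unadjusted p under 0.05) and 2 lower, Arntl being lost at 0.65 (adjusted p = 0.102). In the P450, growth hormone, bile acid, PPAR alpha and fatty acid lists limma counted 0 higher members at an unadjusted p under 0.05 as well. The hour of killing is not given in the sources used here.

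Genes most like the score were sought in the 52 middle mice by Pearson's r over those mice. Lcn2 came first at r = 0.72, followed by Kif3a (0.60), Anxa5 (0.59), Slpi (0.59), Clu (0.58), Mvp (0.58), Farp1 (0.57), Tagln2 (0.57), Unc5b (0.56) and Tmem176a (0.56). Points share arrays, and the score also went with mouse number there (r = 0.25). In the 26 against 26 comparison Slpi, a leukocyte protease inhibitor, differed by 1.79 ± 0.26, Tagln2 by 1.10, Anxa5 by 0.96, Tmem176a by 0.78, Clu by 0.54 and Mvp by 0.38, all passing. Kif3a (0.30), Farp1 (0.27) and Unc5b (0.46) did not pass there, although they rose in the middle mice.

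The 10 genes most like the score all passed in the middle mice with mouse number as a term, together with Rras and Blnk. The falling genes in that fit were the electron transfer subunit Etfa (-0.49) and the tubulin Tuba4a (-0.37). Lcn2 (1.99) and Slpi (1.64) had the largest slopes of that fit's calls. Apart from clusterin Clu and Lcn2, none of these 14 genes is in the acute phase, cytokine, transcription, endotoxin or complement lists.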

How the data were processed

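The deposited values, 1 per probe and array, were read as log10 ratios; the labels give neither base nor direction, and for dyes, scanner and normalization nothing was given in the sources used. No signal or count files were used, so the number of mice limits the precision. Arrays without values (3) were left out, as were values at the limits of -2 and 2 (1.07%). Values were multiplied to the log2 scale. Of 23536 probes, 14744 had 1 gene symbol, 18 several and 8774 none; 12139 of 12315 genes carried current names. Probes with values on at least 90% of arrays were kept (13238) and averaged per gene, 11452 genes having 1 probe. The 3 score genes and Orm3 were not tested, leaving 12311.

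Mean log2 ratios were compared with limma 3.58.1 (lmFit and eBayes, R 4.3.3), and p-values were adjusted by the Benjamini-Hochberg method over all genes tested. All adjusted p-values in the text are from limma. The test was checked on simulated data with genes drawn independently. Those data hold no shared axis of variation, no trend with mouse number and no mice that stand apart. In the 52 middle mice the slope is per SD of the score, fitted the same way. The fit with macrophage markers left those 15 genes out. Tables and figures used Python 3.11.15, pandas 2.3.3, numpy 2.4.6 and matplotlib 3.10.9. Array columns not used numbered 0.

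Named genes were the score genes, the 15 largest higher and 15 largest lower differences whose sign held without the arrays rich in limit values and in the middle mice, called members of the lists (up to 4 for most), and the 10 genes most correlated with the score in the middle mice. Members, lists and tests were chosen with earlier results of these data known. Genes named outside that rule, such as those that did not pass or passed only without mice 20 and 26, were chosen after their values were seen. Alternatives covered the limits, filters, scaling, array weights, set sizes and single score genes.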

Additional observations from a re-analysis of the deposited data

How the results depend on the processing

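The alternatives that use mouse number, macrophage markers, pancreas markers, wide arrays, mice of extreme score, or the first principal component without mice 20 and 26 were chosen after seeing the data. Higher genes in the 26 against 26 comparison (1208) came to 792 without the arrays rich in limit values, 2101 with array quality weights, 593 with 13 against 13 mice, 791 with Lbp alone as the score, 394 and 79 in mice numbered below and above the median alone, and 284 with the macrophage term (0 with it and without mice 20 and 26), and 511 with the first principal component and without that pair. Lower genes (689) came to 218 without the arrays rich in limit values, 1164 with arrays divided by their SD, 2718 with weights, 105 with 13 and 1565 with 39 mice a set, 1075 with Orm1 alone and 222 with Lbp alone. They came to 52 and 10 in mice numbered below and above the median alone, 1239 without wide arrays, 206 with the macrophage term, 289 with the side of the median number as a term, 1692 without mice 20 and 26, 1362 with mouse number as a term and without that pair, 297 with the first principal component and without it, and 0 with the macrophage term and without it, where limma counted 421 higher and 385 lower at an unadjusted p under 0.05. Fewer mice lower some of these counts by construction; the cause of the other changes was not tested.

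In the middle mice, higher genes (338) came to 224 with limit-rich arrays as a term, 510 on the rank of the score, 12 with mouse number, 7 with the side of its median and 1 with the macrophage term. Lower genes (193) came to 128, 323, 2, 0 and 0 in that order, and to 125 without 2 mice rich in pancreas RNA. Unadjusted p under 0.05 counted 866 lower genes with the side of the median as a term (1046 higher) and 619 with the macrophage term (813 higher). No paired analysis was possible because the labels number the mice and not replicates of groups. Arrays give no counts, so depth could not be weighed.

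Of 3292 values of named genes under alternatives, 2518 kept their call, 672 kept their direction but not their call, and 78 changed sign, listed here as high minus low in log2; the cause was not tested. With the first principal component as a term they were Cyp4a14 0.37, Cyp2b9 0.0045, Cyp2c40 0.15, Nr1i3 0.070, Eci1 0.17, Fads2 0.060, Kif3a -0.058 and Unc5b -0.12. Without mice 20 and 26 as well they were Cyp4a14 0.91 (adjusted p = 0.0319), Eci1 0.28, Cyp2b9 0.18, Cyp2c40 0.16, Sult2a8 0.10, Elovl5 0.096, Farp1 -0.012, Tagln2 -0.022, Klf6 -0.062, Mvp -0.071, Kif3a -0.11, Sox9 -0.12, Epcam -0.44 and Unc5b -0.56. In limit-rich arrays alone they were Stard4 0.096 and Insig1 0.16, and in mice numbered below the median Eng -0.12 and Lyve1 -0.13. With the macrophage term the genes above 0 were Cyp4a14 1.07, Cyp2c40 0.64, Eci1 0.62, Cyp2b9 0.50, Fads2 0.49, Hao2 0.44, Elovl5 0.44, Car3 0.43, Nr1i3 0.38, Hsd17b7 0.31, Sult2a8 0.27, Cyp2b13 0.24, Vldlr 0.16, Cyp2c37 0.16, Tef 0.16, Mylpf 0.13, Slc10a1 0.081 and Cnmd 0.061. Those below 0 were S100a8 -0.78, S100a9 -0.74, Lyve1 -0.68, Tagln2 -0.57, Hmox1 -0.36, Sgk1 -0.30, F13a1 -0.26, Cfp -0.26, Gpnmb -0.25, Klf6 -0.24, Cd22 -0.18, Lgals3 -0.15, Kif3a -0.14, Unc5b -0.11, Mmp8 -0.056, Ifit2 -0.044, Tfpi -0.043, Sdf2l1 -0.042 and Spcs2 -0.027. With that term and without mice 20 and 26 they were Cyp4a14 0.42, Eci1 0.24, Elovl5 0.19, Cyp2b9 0.15, Hsd17b7 0.11, Cyp2c40 0.080, Mylpf 0.014, Fads2 0.010, Unc5b -0.011, Eng -0.056, H2-DMb1 -0.070, Tagln2 -0.13, Hmox1 -0.20, Cd22 -0.22 and Cfp -0.35.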

Other observations

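Calls of replication and mitosis genes depended on mice 20 and 26. Of 15 measured, limma called 0 in either direction with all 52 mice, with 2 higher at an unadjusted p under 0.05, and 9 higher without that pair. With all 52 mice, 2 were higher with mouse number as a term, 3 lower with the macrophage term and 2 lower with the first principal component. The fits with the macrophage term and the component called 1.68% and 6.55% of all genes lower. Without the pair limma called 0 of the 15 in either direction with each of those terms. At an unadjusted p under 0.05 the count with the component was also 0 in both directions. The list averaged 3.24 in mouse 20 and 0.30 in mouse 26, against -1.17 to 1.20 with a median of -0.45 in the other 24 low mice. Mki67, a marker of cycling cells, ran from -2.21 through -1.14 to 4.16 in the low set and from -1.45 through -0.02 to 1.45 in the high set. Its difference was 0.73 with all mice (adjusted p = 0.0728) and 0.91 without the pair (0.00103), and 25 of 26 high mice lay above the low median. Ccna2 (0.92) and Top2a (0.56), of the cell cycle and of DNA untangling, also passed without the pair.

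Other features of mice 20 and 26 are given as values. All 24 other low mice lay above both for the lists of complement, coagulation, P450, bile acid and growth hormone regulated genes. Neutrophil markers averaged 1.63 and 0.95 in them, and glucocorticoid response genes averaged 0.27 and 0.53 against a median of -0.51 in the other low mice. Of the named genes called with all 52 mice, 113 of 115 were still called without the pair, the exceptions being Serpina3n and the unfolded protein factor Xbp1.

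Among genes of protein folding and secretion, 4 of 21 chaperones of the endoplasmic reticulum were higher and 0 lower: Sdf2l1 (0.63), Manf (0.39), Xbp1 (0.26) and Ppib (0.23). Of 25 secretory pathway genes 2 were higher and 0 lower, Spcs2 (0.35) and Ddost (0.27), and 4 and 1 without mice 20 and 26. Over all genes 9.81% were higher, so the secretory share is no result about that list. Without the arrays rich in limit values, Sdf2l1 at 0.51 (adjusted p = 0.07) and Ddost at 0.25 (0.0577) did not pass, and limma called 0 of the 21 and 0 of the 25 in either direction, with 5 and 3 higher at an unadjusted p under 0.05. Of 12 sterol genes Dhcr7 was higher (0.36) and Stard4 (-0.59), Insig1 (-0.44) and Hsd17b7 (-0.41) were lower, and 3 were higher and 3 lower without mice 20 and 26. Over all genes 5.6% were lower. In limit-rich arrays alone Stard4 and Insig1 changed sign.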
